A study of Arabidopsis thaliana with 4 samples.

Results

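The 40 genes described here encode the nuclear part of the 2 photosystems and their light-harvesting antennae in *Arabidopsis thaliana*. The members are the nuclear *LHCA*, *LHCB*, *PSA* and *PSB* genes of a list by gene family, and all 40 were found among the 33854 genes of the tables. The list holds 18 antenna genes (4 *LHCA*, 5 *LHCB1*, 3 *LHCB2* and 6 further *LHCB* genes) and 22 subunit genes (12 *PSA* and 10 *PSB*). RNA-seq levels were available for wild-type Col-0 seedlings and for seedlings of the transgenic line *35S-COLDAIR*, with 2 libraries per genotype. *COLDAIR* is a long noncoding RNA of the first intron of the flowering repressor *FLC*, and the transgene drives it from the constitutive *35S* promoter of *Cauliflower Mosaic Virus*. The line was made in the Col-0 background, and all seedlings were 12 days old and grew on Murashige and Skoog medium at 22 °C with 16 h of light and 8 h of darkness. Whole seedlings of 1 transgenic line were used, so an effect of the transgene cannot be told apart from one of its insertion site. No source used here says that the libraries of a genotype came from separate cultures, so p-values measure only the spread between these libraries, which may be technical.

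Photosystem II splits water and photosystem I reduces ferredoxin, and electron carriers in the thylakoid membrane connect them. The reaction centre proteins that bind the first chlorophylls are encoded by the plastid genome, whereas most peripheral subunits and all light-harvesting chlorophyll-binding proteins are made in the cytosol from nuclear genes and imported. LHCB1, LHCB2 and LHCB3 form the major trimeric antenna of photosystem II, the LHCB4, LHCB5 and LHCB6 proteins connect it to the core as monomers, and LHCA1 to LHCA4 form the antenna of photosystem I. The tables held 0 of 10 listed plastid-encoded photosystem genes and 0 plastid or mitochondrial genes in all, so plastid transcripts were not analysed here.

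The antenna of photosystem I is encoded by AT3G54890 (*LHCA1*), AT3G61470 (*LHCA2*), AT1G61520 (*LHCA3*) and AT3G47470 (*LHCA4*). The trimer genes of photosystem II are AT1G29920 (*LHCB1.1*), AT1G29910 (*LHCB1.2*), AT1G29930 (*LHCB1.3*), AT2G34430 (*LHCB1.4*), AT2G34420 (*LHCB1.5*), AT2G05100 (*LHCB2.1*), AT2G05070 (*LHCB2.2*), AT3G27690 (*LHCB2.3*) and AT5G54270 (*LHCB3*), and the connecting antenna genes are AT5G01530 (*LHCB4.1*), AT3G08940 (*LHCB4.2*), AT2G40100 (*LHCB4.3*), AT4G10340 (*LHCB5*) and AT1G15820 (*LHCB6*). The photosystem I subunit genes are AT4G02770 (*PSAD1*), AT1G03130 (*PSAD2*), AT4G28750 (*PSAE1*), AT2G20260 (*PSAE2*), AT1G31330 (*PSAF*), AT1G55670 (*PSAG*), AT3G16140 (*PSAH1*), AT1G52230 (*PSAH2*), AT1G30380 (*PSAK*), AT4G12800 (*PSAL*), AT5G64040 (*PSAN*) and AT1G08380 (*PSAO*). The photosystem II subunit genes are AT5G66570 (*PSBO1*), AT3G50820 (*PSBO2*), AT1G06680 (*PSBP1*), AT4G21280 (*PSBQ1*), AT4G05180 (*PSBQ2*), AT1G79040 (*PSBR*), AT1G44575 (*PSBS*), AT2G30570 (*PSBW*), AT2G06520 (*PSBX*) and AT1G67740 (*PSBY*).

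Several *LHCB1* genes are near-copies, which bears on how reads can be divided among them. *LHCB1.1*, *LHCB1.2* and *LHCB1.3* lie within chr1:10472280-10479114 of TAIR10.1, and *LHCB1.4* and *LHCB1.5* lie side by side on chromosome 2. The first 54 coding bases of the 5 genes are shown 5′ to 3′ from the RefSeq genome, because they show how little separates the copies. Capitals mark bases that differ from *LHCB1.3*.
LHCB1.3: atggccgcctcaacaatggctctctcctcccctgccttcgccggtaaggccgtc
LHCB1.1: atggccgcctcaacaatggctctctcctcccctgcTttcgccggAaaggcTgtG
LHCB1.2: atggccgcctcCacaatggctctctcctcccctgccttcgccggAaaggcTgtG
LHCB1.4: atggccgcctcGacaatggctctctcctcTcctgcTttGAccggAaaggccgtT
LHCB1.5: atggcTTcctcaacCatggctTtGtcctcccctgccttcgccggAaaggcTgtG
These stretches lie at chr1:10478071-10478124 (plus strand), chr1:10475839-10475892 (minus), chr1:10473193-10473246 (minus), chr2:14524818-14524871 (plus) and chr2:14523460-14523513 (minus), in the order printed. *LHCB1.1* and *LHCB1.2* each differed from *LHCB1.3* at 4 bases of the stretch, *LHCB1.4* at 7 and *LHCB1.5* at 8.

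Over the whole coding sequence, *LHCB1.1*, *LHCB1.2* and *LHCB1.3* were 95.6% to 96.4% identical to each other, and *LHCB2.1* and *LHCB2.2* were 96.6% identical. The other *LHCB1* pairs were 86.8% to 91.5% identical, and *LHCB2.3* was 85.7% and 84.6% identical to *LHCB2.1* and *LHCB2.2*. Of all windows of 100 bases in the transcript, 12.4% of those of *LHCB2.2* and 9.87% of those of *LHCB2.1* were found unchanged in the other gene, and 4.44% of those of *LHCB1.1* were found in another *LHCB1* gene. The sources used here do not say how reads that map to several places were counted, so the division of reads among these near-copies is uncertain, and its effect on the values was not tested. Pairs of subunit isoforms ran from 77.7% identical coding bases for *PSBQ1* and *PSBQ2* to 87.0% for *PSAH1* and *PSAH2*. Some members also overlap a gene on the opposite strand. The transcript of *LHCB1.5* lies wholly opposite the annotated noncoding RNA AT2G08665, *PSAG* has 55.8% of its windows opposite AT1G55673 and *PSAE1* has 24.0% opposite AT4G28755. None of these 3 partners was in the tables, and without a stated strand setting, reads of a gene and of its antisense partner cannot be told apart. For *PSAH1* and *LHCB2.3*, with 47.0% and 36.3% of windows opposite a listed gene, the partner reached at most 0.351 FPKM and 9.46 FPKM respectively.

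The photosystem genes were among the most abundant transcripts in these seedlings. Levels are given as FPKM, fragments per kilobase of transcript and per fixed number of mapped fragments, as deposited, so they can be compared between genes per length. Of the 10 genes with the highest mean FPKM over the 4 libraries, 8 were members, as were 17 of the top 20 and 39 of the top 100. The only member outside the top 100 was *LHCB4.3*, at rank 10499.

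*LHCB1.3* had the highest level of any gene in the tables, with 27400 and 24430 FPKM in Col-0 replicates 1 and 2 and 26120 and 24810 FPKM in *35S-COLDAIR* replicates 1 and 2. *LHCB1.5* was next among the members, with 15850 and 13200 FPKM in Col-0 and, in *35S-COLDAIR*, 14740 and 13170 FPKM. Both genes were higher in replicate 1 than in replicate 2 of either genotype, and the ranges of the genotypes overlapped. *LHCB1.2* had 11870 and 9783 FPKM in Col-0 and, in *35S-COLDAIR*, 11440 and 9860 FPKM. *LHCB1.1* had 8762 and 7662 FPKM in Col-0 and, in *35S-COLDAIR*, 9077 and 8295 FPKM. *LHCB1.4*, the lowest of the 5, had 5236 and 4570 FPKM in Col-0 and, in *35S-COLDAIR*, 4808 and 4400 FPKM. The order of the 5 *LHCB1* genes was the same in every library, and no library of one gene reached the range of the next.

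LHCB2 proteins share the trimers with LHCB1, and their phosphorylation is needed for state transitions. *LHCB2.1* had 5149 and 4336 FPKM in Col-0 and, in *35S-COLDAIR*, 4845 and 4328 FPKM. *LHCB2.2* had 4585 and 3977 FPKM in Col-0 and, in *35S-COLDAIR*, 4398 and 3886 FPKM. The ranges of these 2 genes overlapped across libraries, although *LHCB2.1* was the higher within each one. *LHCB2.3* was lower than both, with 2312 and 2022 FPKM in Col-0 and, in *35S-COLDAIR*, 2182 and 1850 FPKM. *LHCB3*, whose product also enters the trimers, lay between 5926 and 6828 FPKM.

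The connecting antenna genes differed most among themselves. *LHCB4.1* had 3905 and 3680 FPKM in Col-0 and, in *35S-COLDAIR*, 3895 and 3833 FPKM, and *LHCB4.2* had 3318 and 2715 FPKM in Col-0 and, in *35S-COLDAIR*, 3042 and 2787 FPKM. *LHCB4.3*, the divergent copy that is also named LHCB8, had only 10.55 and 10.59 FPKM in Col-0 and, in *35S-COLDAIR*, 11.70 and 14.54 FPKM. It was the lowest member by far and held 0.146% to 0.219% of the summed *LHCB4* level. *LHCB5* lay between 6426 and 7190 FPKM. *LHCB6* had 4156 and 3405 FPKM in Col-0 and, in *35S-COLDAIR*, 3932 and 3354 FPKM. Of the photosystem I antenna, *LHCA4* and *LHCA1* were the higher pair, at means over all libraries of 7012 and 6457 FPKM, and *LHCA3* and *LHCA2* had means of 4747 and 4193 FPKM.

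**Figure D1:**
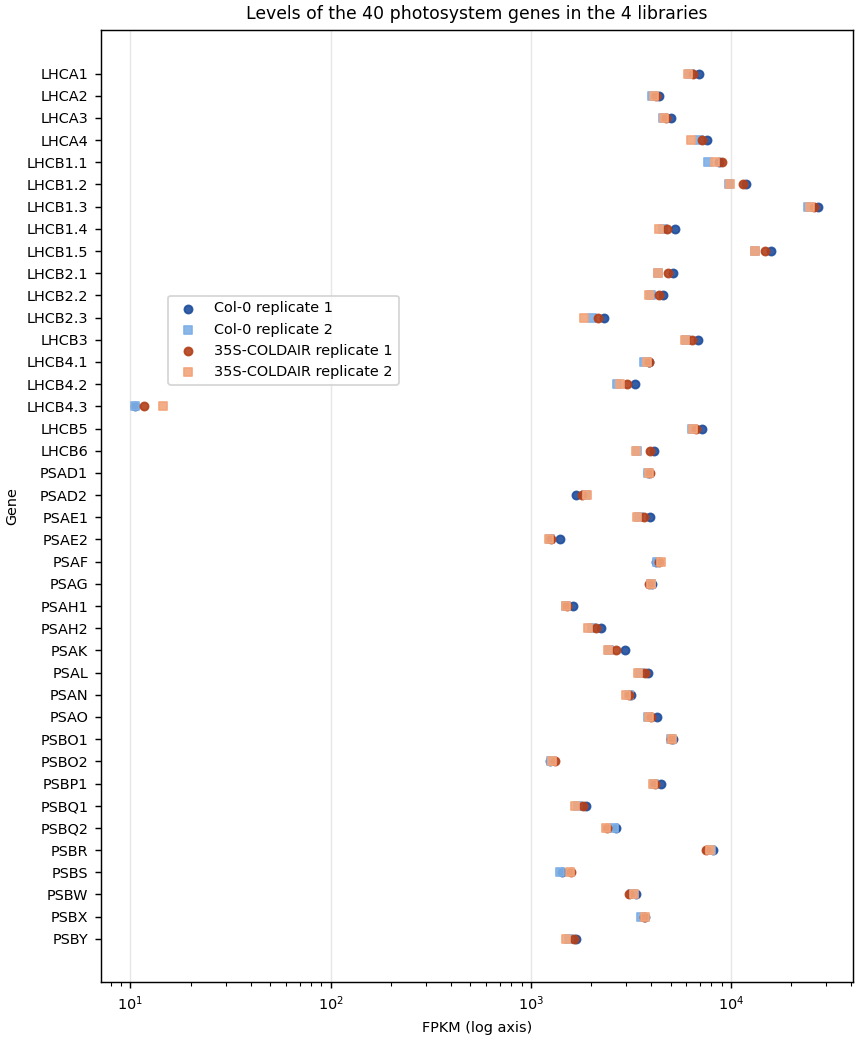
FPKM on a log axis for each of the 40 genes, with 1 point per library (blue, Col-0; red and orange, *35S-COLDAIR*; circles, replicate 1; squares, replicate 2). *LHCB1.3* lies highest, at 24430 to 27400 FPKM, and *LHCB4.3* lies alone at 10.55 to 14.54 FPKM.

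Among the photosystem I subunits, means over all libraries ran from 1290 FPKM for *PSAE2* to 4330 FPKM for *PSAF*. PSAD and PSAE form the stromal side where ferredoxin docks, and each is encoded by a pair of genes. *PSAD1* had 3844 and 3875 FPKM in Col-0 and, in *35S-COLDAIR*, 3963 and 3906 FPKM, against 1688 and 1887 FPKM and 1809 and 1907 FPKM for *PSAD2*. *PSAE1* had 3959 and 3489 FPKM in Col-0 and, in *35S-COLDAIR*, 3673 and 3386 FPKM, against 1403 and 1254 FPKM and 1261 and 1241 FPKM for *PSAE2*. In both pairs the first gene was higher in every library. PSAH is part of the docking site for LHCII. *PSAH1* had 1624 and 1497 FPKM in Col-0 and, in *35S-COLDAIR*, 1525 and 1509 FPKM, whereas *PSAH2* was higher at 2245 and 2015 FPKM and 2109 and 1925 FPKM. *PSAF*, whose product contributes to plastocyanin binding, had 4222 and 4273 FPKM in Col-0 and, in *35S-COLDAIR*, 4358 and 4469 FPKM. *PSAK*, which lies beside the antenna, ranged from 2434 to 2954 FPKM, and *PSAG*, *PSAL*, *PSAN* and *PSAO* ranged from 3004 to 4272 FPKM together.

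Among the photosystem II subunits, *PSBR* stood apart, with 8185 and 7988 FPKM in Col-0 and, in *35S-COLDAIR*, 7507 and 7898 FPKM. The PSBO, PSBP and PSBQ proteins are part of the oxygen-evolving complex on the lumen side. *PSBO1* had 5156 and 5054 FPKM in Col-0 and, in *35S-COLDAIR*, 5011 and 5083 FPKM, against 1246 and 1261 FPKM and 1327 and 1278 FPKM for *PSBO2*, one of the 3 lowest members. *PSBQ1* had 1897 and 1722 FPKM in Col-0 and, in *35S-COLDAIR*, 1833 and 1674 FPKM, against 2682 and 2606 FPKM and 2393 and 2378 FPKM for *PSBQ2*. *PSBS*, which is needed for the rapid dissipation of excess light energy, had 1437 and 1395 FPKM in Col-0 and, in *35S-COLDAIR*, 1591 and 1565 FPKM. *PSBP1*, *PSBW*, *PSBX* and *PSBY* ranged from 1506 to 4462 FPKM.

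The division of a family among its copies varied little between libraries. *LHCB1.3* held 39.46% to 40.99% of the summed *LHCB1* FPKM and *LHCB1.5* held 21.75% to 22.94%. *PSAD1* held 67.20% to 69.49% of the *PSAD* level, *PSBO1* held 79.06% to 80.54% of the *PSBO* level and *PSAE1* held 73.18% to 74.44% of the *PSAE* level. The widest ranges were 3.86 percentage points for *LHCB4.2*, 3.79 for *LHCB4.1* and 3.60 for the *PSBQ* pair.

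The 40 genes together held a large share of the summed FPKM of a library. It was 21.18% and 19.57% in Col-0 replicates 1 and 2 and 20.28% and 19.48% in *35S-COLDAIR* replicates 1 and 2. The mean was 20.37% ± 1.14 (SD, n = 2) in Col-0 and 19.88% ± 0.568 (SD, n = 2) in *35S-COLDAIR*, and the ranges of the genotypes overlapped. The 18 antenna genes held 13.71% and 12.28% in the Col-0 libraries and 13.09% and 12.23% in those of *35S-COLDAIR*. The 22 subunit genes held 7.469% and 7.291% in the former and 7.195% and 7.247% in the latter. In the subunit share both *35S-COLDAIR* libraries were thus below both Col-0 libraries, by a narrow margin, whereas the antenna share overlapped between genotypes. This separation was not tested. Both replicate 1 libraries were above both replicate 2 libraries in the antenna share but not in the subunit share. The 5 *LHCB1* genes alone held 6.425% to 7.260%. FPKM is scaled by gene length, so these shares are not shares of reads.

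**Figure D2:**
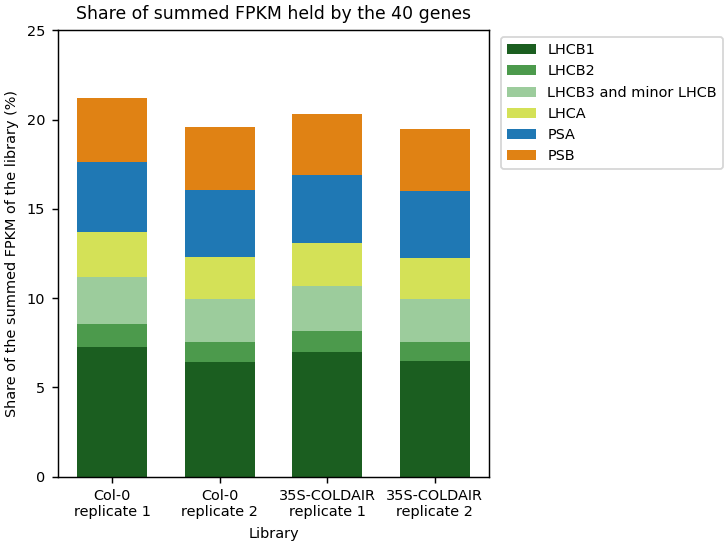
Share of the summed FPKM of each library (%) held by the 40 genes, stacked by gene family, with 1 bar per library. The whole bar reaches 21.18% and 19.57% for Col-0, then 20.28% and 19.48% for *35S-COLDAIR*, and most of the difference between replicates lies in the antenna families.

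The genotype comparison asked whether the photosystem genes differed in the line that overexpresses *COLDAIR*. As a check of the labels, *FLC* was at 2.05 and 1.13 FPKM in the wild type and at 43.35 and 37.59 FPKM in the line, a log2 difference of 4.02 ± 0.206 (SE, limma, Benjamini-Hochberg adjusted p = 0.0835). Its libraries were far apart, yet it passed the threshold of 0.05 only with the replicate number as a block, at an adjusted p of 0.00349 by limma. In whole seedlings, fewer cells of a type and less RNA per cell cannot be told apart.

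No photosystem gene changed between the genotypes by this test. With limma and Benjamini-Hochberg adjustment, 0 of 40 members passed the threshold, against 0.00993% of all 20142 tested genes, and the smallest adjusted p among the members was 1.0. At an unadjusted p under 0.05 the count was also 0 of 40, against 2.59% of tested genes. It was 3 of 40 with the replicate number as a block, against 1608 of the 20142 tested genes. These 3 were *PSBS*, *PSBQ2* and *LHCB4.3*, with adjusted p of 0.571, 0.599 and 0.624 by limma. With each library scaled to its own FPKM sum the count was 2 of 40, *PSBS* and *PSBQ2*, against 528 of the 20142. The threshold was hard to pass in the fit without a block, since *FLC* also missed it, so a count of 0 does not show that the members did not differ. All 40 members had passed the filter on low values. Differences below are on the scale of log2(FPKM + 1). The median difference of the members was -0.041, *35S-COLDAIR* minus Col-0, and that of all tested genes was 0.002. The sign of the median rested on single libraries, since it was 0.032 without Col-0 replicate 1 and 0.004 without *35S-COLDAIR* replicate 2, and -0.109 without Col-0 replicate 2. Of the members, 31 were below 0 and 9 above, against 49.4% of tested genes below 0. Within both replicate numbers 20 members were lower in *35S-COLDAIR* and 7 were higher, against 27.0% and 28.2% of tested genes. For 35 of 40 members the difference was under 0.1 in size, and 0 of 40 passed 1.5-fold, against 1.71% of tested genes. The 95% interval of a member reached 0.172 to 0.371 to either side of its estimate, so differences within that size were not resolved.

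The members whose libraries did not overlap between genotypes were few. *PSBS*, *LHCB4.3*, *PSAD1*, *PSAF* and *PSBO2* had both *35S-COLDAIR* libraries above both Col-0 libraries, which is 5 of 40 against 14.8% of tested genes. *PSBQ2* and *PSBR* had both below, which is 2 of 40 against 14.3%. These shares are near or under those of all tested genes. *LHCB4.3* had the largest difference, at 0.28 ± 0.131 (SE), and the FPKM of the *35S-COLDAIR* replicate 2 library stood above the other 3. *PSBS* followed at 0.16 ± 0.065, with a 95% interval of -0.016 to 0.329, and its difference was alike within both replicate numbers, at 0.147 and 0.165. *LHCB1.1* came next, at 0.08 ± 0.105, with overlapping libraries.

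At the other end, *PSBQ2* had a difference of -0.15 ± 0.066 (SE), with a 95% interval of -0.324 to 0.027. *LHCB2.3* had -0.11 ± 0.121 and *LHCA4*, with 7595 and 6914 FPKM in Col-0 and, in *35S-COLDAIR*, 7203 and 6337 FPKM, had -0.10 ± 0.103. The libraries of the last 2 overlapped between genotypes. Of the abundant *LHCB1* and *LHCB2* genes, 7 of 8 were below 0, with a median of -0.046 over the 8. Only 5 of those 8 were lower within both replicate numbers, and *LHCB1.1* was higher within both.

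**Figure D3:**
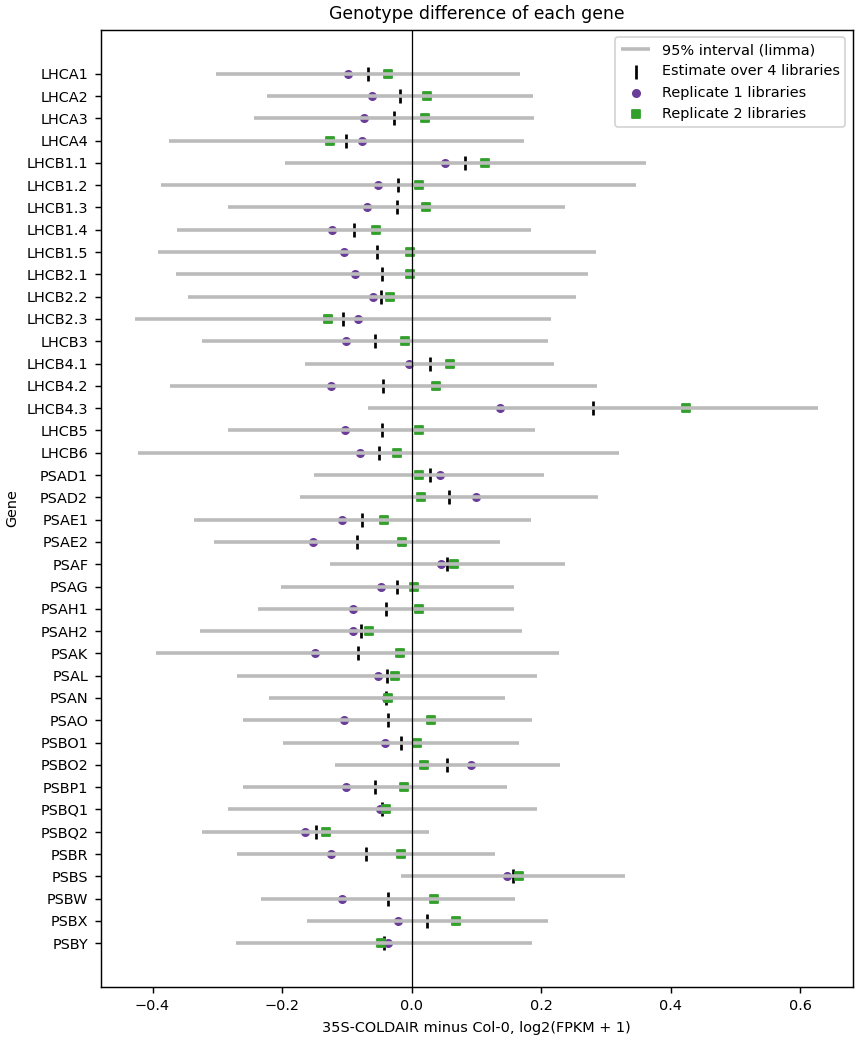
Difference between *35S-COLDAIR* and Col-0 for each gene, in log2(FPKM + 1), with the estimate over 4 libraries (black tick), its 95% interval from limma (grey bar) and the difference within each replicate number (circle and square). Every interval, from the fit without a block, crosses 0, and *PSBS* at 0.16 and *PSBQ2* at -0.15 come nearest to clearing it.

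Genes of connected pathways gave no calls between genotypes either. Of 9 further nuclear photosystem genes, such as *PSB27* and *CURT1A*, 7 electron carriers, 14 genes of chlorophyll synthesis, 7 regulators and 7 genes of antenna import and phosphorylation, 0 passed the threshold by limma in either direction. The share over all tested genes was 0.00993%, and *FLC* also missed the threshold. A count of 0 thus does not show that these genes did not differ. Medians over these lists lay between 0.037 and 0.075. Single genes of these lists were farther from 0. *PORA*, a light-dependent protochlorophyllide reductase, had 55.52 and 46.95 FPKM in Col-0 and, in *35S-COLDAIR*, 29.41 and 28.36 FPKM, a difference of -0.80 ± 0.108 (SE, limma, adjusted p = 1.0). The ferredoxin gene *FD2* had 1319 and 1334 FPKM in Col-0 and, in *35S-COLDAIR*, 1652 and 1647 FPKM, a difference of 0.31 ± 0.063 (SE, limma, adjusted p = 1.0). *HEMA1* of chlorophyll synthesis had 236.7 and 276.8 FPKM in Col-0 and, in *35S-COLDAIR*, 330.8 and 307.1 FPKM, a difference of 0.315. *PSB28*, a further photosystem gene, differed by 0.233. *PORA*, *FD2*, *HEMA1* and *PSB28* were under an unadjusted p of 0.05 by limma, and their libraries did not overlap between genotypes. All were singled out after their values were seen. The counts under that p were 2 of 14 chlorophyll genes, 1 of 7 electron carriers and 1 of 9 further photosystem genes, against 2.59% of tested genes. They were 0 of 7 regulators and 0 of 7 genes of antenna import and phosphorylation. Of 15 root markers, 13 were below 0, against 49.4% of tested genes, with a median difference of -0.26 and 0 called. In 6 of them both *35S-COLDAIR* libraries lay below both Col-0 libraries, against 14.3% of tested genes. At an unadjusted p under 0.05 by limma the count was 3 of 15, against 2.59% of tested genes. The summed level of the 15 root markers was 1036 and 993.3 FPKM in Col-0 and, in *35S-COLDAIR*, 1050 and 819.1 FPKM. Most of each sum was the 1 marker *PYK10*, with 918.7 and 860.9 FPKM in Col-0 and, in *35S-COLDAIR*, 942.3 and 722.6 FPKM. The part of the root markers in the genotype differences of the photosystem genes was not tested. The summed level of 4 floral organ identity markers was at most 1.76 FPKM, and that of 3 leaf markers (*RBCS1A*, *RCA* and *CA1*) lay between 17220 and 19740 FPKM.

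The libraries of the same genotype were also compared. Each replicate number is also one of the 2 deposited tables, so a difference between replicates cannot be told apart from one between the tables. The numbers are those of the columns, and every sign below would turn under the numbers in the names of the tables. Replicate 2 minus replicate 1 was fitted with genotype as a term. Here 0 of 40 members passed the threshold by limma with Benjamini-Hochberg adjustment, against 3.86% of tested genes, and the smallest adjusted p was 0.0864, for *LHCB6*. At an unadjusted p under 0.05 the count was 14 of 40, against 17.9% of tested genes. The median difference was -0.099 for all members, -0.161 for the 18 antenna genes and -0.039 for the 22 subunit genes, and it was -0.005 for all tested genes. Quantile normalization, which gives equal ranks equal values, left -0.003 for all members and -0.029 for the antenna genes.

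In 17 of 18 antenna genes both replicate 2 libraries lay below both replicate 1 libraries, against 24.9% of tested genes. The exception was *LHCB4.3*. Among subunit genes the count was 11 of 22, and *PSAD2* was the 1 member with both replicate 2 libraries above, against 22.4% of tested genes. The difference between antenna and subunit genes was not tested. Over both genotypes, 34 of 40 members had a difference below 0, against 51.2% of tested genes. Within each genotype taken alone, 30 of 40 were lower in replicate 2 both times, against 32.7%, and 3 were higher both times, against 29.8%. The median difference of the members was -0.135 in Col-0 and -0.051 in *35S-COLDAIR*. A fall was not particular to the members. All 9 further nuclear photosystem genes were below 0, with a median of -0.096, and in 5 of 9 both replicate 2 libraries lay below. The leaf markers *RCA*, *RBCS1A* and *CA1* differed by -0.274, -0.072 and -0.024. Of the electron carriers 2 of 7 were below 0, as were 2 of 7 genes of antenna import and phosphorylation.

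*LHCB6* had the most negative difference, at -0.26 ± 0.055 (SE), followed by *LHCB1.2* at -0.25 ± 0.061 and *LHCB2.3* at -0.22 ± 0.053. All 8 *LHCB1* and *LHCB2* genes were lower in replicate 2, with a median of -0.20 and a range of -0.25 to -0.12, the smallest in size being that of *LHCB1.3*. The 4 *LHCA* genes lay between -0.16 and -0.071. Among the subunits, *PSAK* had -0.20 ± 0.060 and *PSAE1* had -0.15 ± 0.056, whereas *PSBO1* had -0.004 and *PSAD1* had -0.005. At the upper end, *LHCB4.3* had 0.15 ± 0.109, *PSAD2* had 0.12 ± 0.055 and *PSAF* had 0.027 ± 0.055. The value of *LHCB4.3* came from the *35S-COLDAIR* libraries, with a difference of 0.292 against 0.004 in Col-0.

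**Figure D4:**
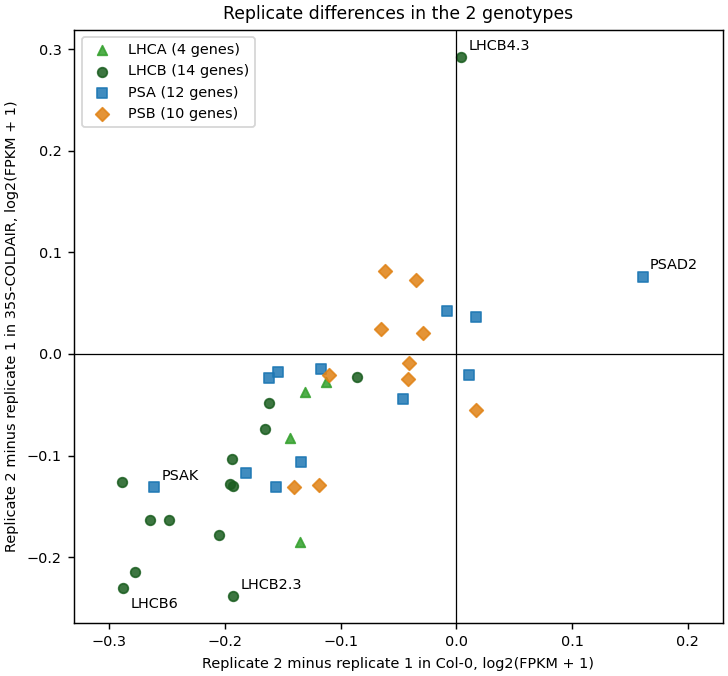
Replicate 2 minus replicate 1 in Col-0 (x axis) and in *35S-COLDAIR* (y axis), in log2(FPKM + 1), with 1 point per gene and symbols by family. Of the 40 genes, 30 lie at the lower left, below 0 in both genotypes, and *LHCB4.3* and *PSAD2* stand apart.

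Other genes moved with the replicate number too. Of 11 circadian clock genes, 7 passed the threshold in this comparison by limma, against 3.86% of tested genes, and all 7 calls were lost without a filter on low values or without the variance trend. The morning genes *CCA1* and *LHY*, which encode related MYB factors, were among the 4 that fell, together with *RVE8* and *PRR9*. *CCA1* had 51.58 and 27.81 FPKM in Col-0 and, in *35S-COLDAIR*, 44.29 and 23.58 FPKM, a log2 difference of -0.88 ± 0.066 (SE, limma, adjusted p = 0.0106). *PRR9* had 26.23 and 9.117 FPKM in Col-0 and, in *35S-COLDAIR*, 21.68 and 8.868 FPKM, a difference of -1.31 ± 0.096 (limma, adjusted p = 0.0105). *PRR5*, *LUX* and *ELF4* rose, by 0.55, 0.68 and 0.51. CCA1 is known to bind a light-harvesting gene promoter, and many *LHCB* genes are known to follow the clock. No source used here gives the hour of collection. The part of the clock genes in the antenna differences was not tested.

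Of the 7 regulators, only *GLK2* passed the threshold, against 3.86% of tested genes. GLK1 and GLK2 are transcription factors known to activate antenna and chlorophyll genes. *GLK2* had 169.4 and 97.23 FPKM in Col-0 and, in *35S-COLDAIR*, 145.1 and 93.10 FPKM, a difference of -0.71 ± 0.064 (SE, limma, adjusted p = 0.0136), with both replicate 2 libraries below both replicate 1 libraries. *GLK1* had 100.9 and 87.39 FPKM and 96.00 and 84.83 FPKM, a difference of -0.19 (limma, adjusted p = 0.169). Of 14 chlorophyll genes, 2 passed the threshold downward and 1 upward, against 3.86% of tested genes. *CAO* and *GUN4* fell by 0.39 and 0.33 on the log2 scale (limma, adjusted p = 0.0307 and 0.0396). *PORB* rose by 0.37 (limma, adjusted p = 0.0394). *CAO* makes chlorophyll b, which antenna proteins bind. The regulator and chlorophyll calls were likewise lost by limma without the filter or the variance trend. Without the genotype term, only *GLK2*, *RVE8* and *PRR9* of the genes called here kept their calls. *ELF4* also lost its call with a pseudocount of 0.1 FPKM. The summed level of 4 seed storage genes was 35.30 and 8.143 FPKM in Col-0 and 14.93 and 15.31 FPKM in the line, and the Col-0 replicate 1 library stood above the rest. Its part in the replicate differences was not tested.

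The upstream sequences of the members were read for short motifs linked to light and clock control, in the 250 bases before the annotated start of each gene. CCAATC, a motif bound by GLK factors, was present on either strand in 10 of 18 antenna genes and 1 of 22 subunit genes, against 10.5% of 37897 windows of the same length in the annotation. The G-box CACGTG was present in 4 of 18 and 4 of 22, against 5.39%. The CCA1-binding site AANAATCT was present in 5 of 18 and 5 of 22, against 12.7%, the I-box GATAAG in 4 of 18 and 5 of 22, against 12.7%, and the evening element AAAATATCT in 0 of 40 members, against 2.11%. The motifs could overlap each other, and a match is a description of letters and not a binding site. The windows of 3 members are shown 5′ to 3′, from the RefSeq sequence of TAIR10.1. *LHCB1.3* is the most abundant gene, *LHCB1.1* is its neighbour, and *LHCB2.3* was among the lowest at both comparisons. The genotype differences of *LHCB1.3* and *LHCB1.1* had opposite signs, but neither was resolved, and each sign turned with single libraries left out. Capitals mark matches to the 5 motifs.
LHCB1.3: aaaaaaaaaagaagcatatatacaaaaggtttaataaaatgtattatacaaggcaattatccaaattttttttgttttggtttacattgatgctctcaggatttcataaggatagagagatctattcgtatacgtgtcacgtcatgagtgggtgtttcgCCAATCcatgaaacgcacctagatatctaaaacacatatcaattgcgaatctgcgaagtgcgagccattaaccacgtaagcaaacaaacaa
LHCB1.1: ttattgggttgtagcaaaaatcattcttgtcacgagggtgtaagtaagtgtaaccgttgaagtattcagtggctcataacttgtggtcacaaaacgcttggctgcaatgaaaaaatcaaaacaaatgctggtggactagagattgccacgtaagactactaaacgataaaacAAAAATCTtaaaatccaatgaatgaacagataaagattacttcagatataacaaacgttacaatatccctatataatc
LHCB2.3: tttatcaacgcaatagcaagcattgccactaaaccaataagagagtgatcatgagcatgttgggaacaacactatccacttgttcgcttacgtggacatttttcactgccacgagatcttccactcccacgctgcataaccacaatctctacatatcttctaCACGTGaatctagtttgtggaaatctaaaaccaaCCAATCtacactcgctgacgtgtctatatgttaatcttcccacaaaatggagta
They lie at chr1:10477635-10477884 (plus strand), chr1:10475970-10476219 (minus) and chr3:10255656-10255905 (plus). *LHCB1.3* holds 1 CCAATC, *LHCB1.1* holds 1 CCA1-binding site and *LHCB2.3* holds a G-box and a CCAATC. *LHCB6* and *LHCB1.2*, with the most negative replicate differences, hold 0 CCAATC. *LHCA4* and *LHCB4.1* hold 2 each, with replicate differences of -0.16 and -0.054. A relation of the motifs to the differences was not tested.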

How the data were processed

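Poly-A RNA of 12-day-old seedlings was sequenced, 2 libraries per genotype. The authors deposited gene-level FPKM in 2 tables, each with 1 replicate number of both genotypes. The paper's methods name TopHat and cuffdiff on TAIR10, whereas the submitters' processing notes list STAR 2.5.2b and Cuffdiff. The annotation, the strand setting, and whether the tables were normalized together are not given in the sources used here. Columns were assigned by genotype and replicate number in their names. The replicate numbers in the table names run the other way. The tables hold no depth, and low-value steps gave *35S-COLDAIR* 1.09 and 1.13 times the depth of Col-0 in replicates 1 and 2.

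The 20142 genes averaging 0.5 FPKM or more over the 4 libraries were fitted as log2(FPKM + 1) in limma 3.58.1 (R 4.3.3) with a variance trend, genotype alone or replicate with genotype, p-values adjusted by Benjamini-Hochberg and called under 0.05. Fold changes of low genes are understated on this scale. All members may be named, and library values follow a fixed rule (*LHCB1*, *LHCB2*, isoform families, the extremes of level and of each difference). Members and lists were chosen with earlier results of these data known. Sequences came from RefSeq TAIR10.1 (31416 of 33854 identifiers matched).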

Additional observations from a re-analysis of the deposited data

How the results depend on the processing

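Under every alternative that gave a test, 0 of 40 members passed the threshold by limma in both comparisons, which says little of stability, since *FLC* missed it in every genotype fit without the block (adjusted p from 0.0692 to 0.574). The alternatives were a pseudocount of 0.1 FPKM, a filter at 1 FPKM or none, quantile normalization, scaling to the library sum, median centring, no variance trend, the replicate block (or no genotype term) and, for the genotype comparison, each library left out, where the lone library is assumed to vary like the other group. The counts of genes called in the genotype comparison, 1 higher and 1 lower, were small and unstable. They became 2 lower with the pseudocount of 0.1, 2 higher without the variance trend, and, with a library left out, 0 higher each time and 0 or 1 lower. With the replicate block they were 3 higher and 4 lower, with 1608 genes and 3 of 40 members at an unadjusted p under 0.05. The numbers are shared by 2 pairs only, and the replicate differences of the genotypes correlated at 0.37 over 20142 genes and at 0.76 over the 40 members, as a description. In the replicate comparison, 405 higher and 372 lower genes became 26 and 15 without a filter, 1 and 2 without the variance trend, and 86 and 49 without the genotype term. The median genotype difference of the members ran from -0.109 to 0.032 with a library left out, being 0.032 without Col-0 replicate 1, -0.109 without Col-0 replicate 2 and 0.004 without *35S-COLDAIR* replicate 2. The median replicate difference was -0.003 under quantile normalization, which sets equal ranks to equal values, and -0.135 to -0.051 with a library left out, where no test was possible. The share held by the members was 17.62% in Col-0 and 17.17% in *35S-COLDAIR* without *LHCB1.3*, and 21.31% in Col-0 and 20.83% in *35S-COLDAIR* without the 10 highest other genes in the denominator. The antenna and subunit genes were taken apart after the data were seen.

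No single member was called, and the sign of small differences depended on the libraries. Over 480 values per comparison, 39 genotype differences in 27 members and 29 replicate differences in 12 members changed sign, none beyond 0.119 and 0.087. Quantile normalization gave genotype differences of 0.009 for *LHCA2*, 0.006 for *PSAO* and 0.043 for *PSBO1*. It gave replicate differences of 0.035 for *LHCA2*, 0.055 for *LHCA3*, 0.043 for *LHCB4.1*, 0.076 for *PSAD1*, 0.043 for *PSBO1*, 0.025 for *PSBP1*, 0.057 for *PSBQ2* and 0.087 for *PSBX*. Scaling to the sum gave 0.025 for *PSAD1*, 0.026 for *PSBO1*, 0.011 for *PSBO2*, 0.005 for *PSBQ2* and 0.010 for *PSBX*, and median centring gave 0.001 for *PSAD1* and 0.002 for *PSBO1*. The cause of these changes was not tested. With a library left out, 26 genotype differences crossed 0, with ranges of *LHCA1* -0.139 to 0.005, *LHCA2* -0.075 to 0.038, *LHCA3* -0.093 to 0.039, *LHCB1.1* -0.014 to 0.179, *LHCB1.2* -0.16 to 0.119, *LHCB1.3* -0.106 to 0.059, *LHCB1.4* -0.187 to 0.009, *LHCB1.5* -0.186 to 0.078, *LHCB2.1* -0.169 to 0.079, *LHCB2.2* -0.149 to 0.056, *LHCB2.3* -0.225 to 0.013, *LHCB3* -0.153 to 0.041, *LHCB4.1* -0.015 to 0.07, *LHCB4.2* -0.188 to 0.101, *LHCB5* -0.127 to 0.035, *LHCB6* -0.195 to 0.093, *PSAD2* -0.023 to 0.138, *PSAE1* -0.167 to 0.016, *PSAH1* -0.098 to 0.019, *PSAK* -0.214 to 0.047, *PSAL* -0.105 to 0.029, *PSAO* -0.114 to 0.04, *PSBQ1* -0.115 to 0.025, *PSBW* -0.078 to 0.004, *PSBX* -0.008 to 0.057 and *PSBY* -0.107 to 0.022. The 7 replicate differences that crossed 0 had ranges of *PSAD1* -0.021 to 0.011, *PSAG* -0.008 to 0.042, *PSBO1* -0.029 to 0.021, *PSBO2* -0.055 to 0.017, *PSBR* -0.035 to 0.073, *PSBW* -0.062 to 0.082 and *PSBX* -0.065 to 0.025.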
